A study of Mus musculus with 10 samples.

Results

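Replication-dependent histone genes supply the histones that package newly copied DNA, and 70 of the 38720 gene symbols in the deposited count table belong to them. They were taken by name, as every symbol that begins with Hist1h, Hist2h, Hist3h or Hist4h. The 70 symbols comprise 6 genes of the linker histone H1, 20 of H2A, 19 of H2B, 12 of H3 and 13 of H4. In the GENCODE annotation of GRCm38, 56 of them lie on chromosome 13, 10 on chromosome 3, 3 on chromosome 11 and 1 on chromosome 6, and 3 are annotated as pseudogenes (Hist3h2bb-ps, Hist1h2aj and Hist1h2al).

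The RNA came from tail buds microdissected from mouse embryos at embryonic day 12.5, in 10 libraries of 3 groups. The series concerns the Lin28/let-7 pathway, in which the RNA-binding protein Lin28a blocks maturation of let-7 microRNAs, during elongation of the caudal body axis. The Lin28a-induced group (n = 4, replicates 2 to 5) carried TRE-Lin28a, a Lin28a transgene driven by a tetracycline-responsive element, together with RLSL-rtTA, a transactivator allele that Cre switches on, and FoxD1-Cre, and it was treated with doxycycline. The no-Cre group (n = 3, replicates 6 to 8) shared the doxycycline treatment, TRE-Lin28a and RLSL-rtTA but had no FoxD1-Cre. For the wild-type group (n = 3, replicates 1 to 3) the labels name no transgene and no doxycycline, so this group differs from the no-Cre group in both alleles and in treatment. Cre under FoxD1 control limits the induced transgene to cells that express FoxD1 or descend from such cells, while the libraries were made from whole tail buds. Nothing in the labels says that libraries of a group came from separate embryos, so every p-value measures the spread between these libraries. In all sentences below, values of a group are listed in the order of its replicate numbers.

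Histone octamers hold pairs of H2A, H2B, H3 and H4, and H1 binds the DNA between nucleosomes. Most histone mRNAs of S phase have no poly(A) tail. Their 3′ end is a conserved stem-loop that the protein Slbp binds, and U7 snRNP directs the cut just after it. Histone genes can also give rise to polyadenylated mRNAs that read past the stem-loop, which is known mainly from differentiating cells. The embryonic tail bud is a growing tissue with many cycling cells, so both kinds of transcript could be present. The kit named in the labels prepares strand-specific libraries, and no source used here says whether poly(A) RNA was selected.

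The stem-loop is the sequence that defines this gene family, so its forms are shown first. The 16-base motif GGNNCTTNTNAGNGCC was searched on the sense strand of the GENCODE transcripts of each member, from the longest to the first with a match. It was found in 44 of the 70 genes. For other protein-coding symbols only the longest protein-coding transcript was searched, and 18 of 21810 held it (0.0825%). By that narrower search 61 of all 21877 protein-coding symbols, members included, held it. The 7 forms are written 5′ to 3′ as DNA, and capitals mark the 5 positions that the motif leaves free:
26 members of classes H1, H2A, H2B and H3: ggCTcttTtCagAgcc
7 H4 members, among them Hist1h4d and Hist4h4: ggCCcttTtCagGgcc
6 members, among them Hist1h3c and Hist1h3e: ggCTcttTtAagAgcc
Hist1h4i and Hist2h4: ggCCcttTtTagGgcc
Hist2h2ac: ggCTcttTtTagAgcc
Hist1h3g: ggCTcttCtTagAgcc
Hist1h4a: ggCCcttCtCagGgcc

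Every H4 match was of a form that begins with ggCC and ends with Ggcc, and every match of another class was of a form that begins with ggCT and ends with Agcc. A missing match means only that these letters are not in the annotated transcript, which for several members stops short of the stem-loop.

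Many annotated transcripts continue beyond the stem-loop, and some end with a polyadenylation signal. AATAAA or ATTAAA stood within the last 40 bases of 16 of the 67 members that are not pseudogenes (23.9%), against 15316 of 21877 protein-coding symbols (70%). The last 30 bases of 4 such transcripts, those of the H1, H2B and H4 genes with the largest shares of counts, are written 5′ to 3′ with the signal in capitals:
Hist1h1c: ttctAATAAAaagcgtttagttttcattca
Hist2h2be: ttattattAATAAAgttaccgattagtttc
Hist3h2ba: attAATAAAtttggttcaattttggccaca
Hist1h4i: tctgtttacATTAAAagtattctatgctaa

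The 16 members with such a signal held 66.7% of all counts assigned to the 70 genes, the 31 with a stem-loop match and no signal 19.1%, the 20 with neither 13.3% and the 3 pseudogenes 0.892%. Per library, the 16 genes held between 64.2% and 71.3% of the histone counts in Lin28a-induced libraries, between 64.0% and 68.3% in no-Cre libraries and between 65.5% and 67.3% in wild-type libraries, so the 3 groups overlapped in this share. Levels compared between genes are CPM, which are counts scaled to a common library size with TMM factors, divided by the length of the longest transcript. On that scale Hist1h1c led with 9.58 CPM per kilobase, followed by Hist3h2ba with 7.52, Hist1h4i with 5.85, Hist1h2bc with 3.20, Hist2h2be with 2.41, Hist3h2a with 2.24 and Hist1h3c with 2.11. Of these 7 genes, Hist1h3c and Hist1h2bc had no polyadenylation signal in their last 40 bases. The other 63 members were at or below 1.48 CPM per kilobase. Median levels were 0.39 CPM per kilobase for members with a signal, 0.372 with a stem-loop match and no signal and 0.512 with neither. The share of 66.7% therefore does not describe the typical member with a signal.

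**Figure D1:**
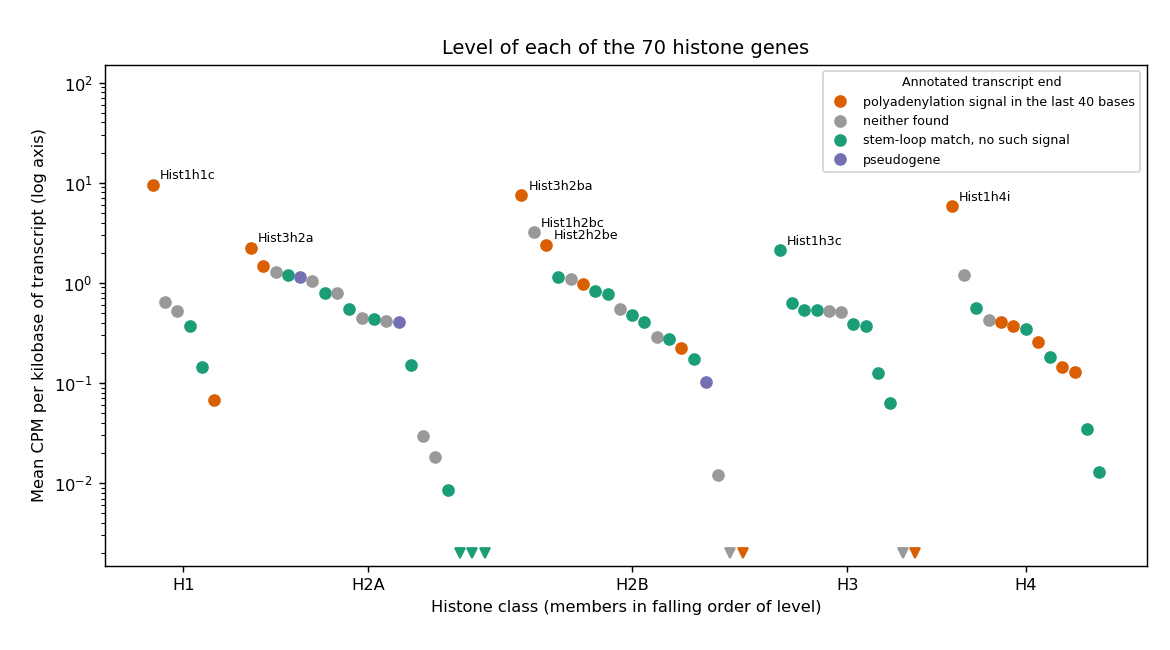
Mean level of each of the 70 histone genes over the 10 libraries, in CPM per kilobase of the longest annotated transcript on a log axis, by class and coloured by what the annotated transcript end holds. Triangles at the bottom stand for the 7 genes with no count in any library, and Hist1h1c, Hist3h2ba and Hist1h4i lie highest.

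Reads could not always be assigned to 1 histone gene. For 32 of the 70 members, over 50% of the 75-base words of the annotated transcripts also occur in another annotated gene, and 5 members share no such word. The 7 members with no count in any library (Hist1h2ap, Hist2h2aa1, Hist2h2aa2, Hist1h2bq, Hist1h2br, Hist2h3b and Hist2h3c1) all share between 87.14% and 100% of their words. No source used here says how the authors' counting treated reads with several alignments, so a count of 0 in such a gene is no measure of its transcription. Of the genes described below, Hist2h2bb shares all of its words with the annotated genes Gm20628 and Gm42743, and its values are uncertain for that reason.

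Promoter windows of 300 bases (250 before to 50 after the start, from RefSeq, GRCm38.p6) were available for 61 of the 70 members, as 62 windows, since Hist1h2be has 2. TATAAA was found in 35 of these windows (56.5%) and in 13.6% of all 32851 windows, searched on both strands. CCAAT was found in 53 of the 62 (85.5%) and in 37.4% of all windows. It occurred in all 50 windows of classes H1, H2A, H2B and H3 and in 3 of 12 H4 windows. The octamer ATTTGCAT was found in 14 of the 62 (22.6%) and in 1.74% of all windows, 7 of them H2A and 7 H2B. These matches are descriptions of letters and not of bound factors. The windows of 3 genes are shown because their genes carry the differences reported below, each on the strand of its gene and 5′ to 3′, with matches to the 3 motifs on either strand in capitals. The Hist1h2ac window (chr13:23683910-23684209, minus strand) also holds the annotated start of Hist1h2bc, the H2B gene that is transcribed in the opposite direction. The Hist3h2ba window lies at chr11:58948661-58948960 on the plus strand and the Hist1h4i window at chr13:22041313-22041612 on the minus strand:
Hist1h2ac: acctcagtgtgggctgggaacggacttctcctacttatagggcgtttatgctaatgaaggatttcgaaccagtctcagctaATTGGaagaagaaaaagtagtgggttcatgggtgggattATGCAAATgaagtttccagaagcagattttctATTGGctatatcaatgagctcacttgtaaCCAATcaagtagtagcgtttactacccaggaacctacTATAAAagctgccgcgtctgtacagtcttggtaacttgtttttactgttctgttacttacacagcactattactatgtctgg
Hist3h2ba: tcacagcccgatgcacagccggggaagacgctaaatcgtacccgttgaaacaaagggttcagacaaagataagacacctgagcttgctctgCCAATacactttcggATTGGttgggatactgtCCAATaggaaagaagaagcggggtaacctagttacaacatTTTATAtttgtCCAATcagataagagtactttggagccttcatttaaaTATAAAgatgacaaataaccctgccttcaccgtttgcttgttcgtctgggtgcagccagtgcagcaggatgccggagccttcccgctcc
Hist1h4i: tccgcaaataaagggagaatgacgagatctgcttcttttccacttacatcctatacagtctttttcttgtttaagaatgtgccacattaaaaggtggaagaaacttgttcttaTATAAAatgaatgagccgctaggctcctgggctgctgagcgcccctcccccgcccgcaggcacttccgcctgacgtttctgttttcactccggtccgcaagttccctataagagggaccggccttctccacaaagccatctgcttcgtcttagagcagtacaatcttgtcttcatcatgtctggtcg

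The Hist1h2ac window held 3 CCAAT matches, 1 octamer and 1 TATAAA. In the Hist3h2ba window there were 4 CCAAT and 2 TATAAA matches and no octamer. Hist1h4i had 1 TATAAA match and neither of the other 2 motifs.

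Totals per library ran from 29898412 to 39517946 counts in the Lin28a-induced group, from 29300166 to 38893332 in the no-Cre group and from 21762668 to 25316537 in the wild-type group. Lin28a itself stood at 665, 605, 750.3 and 731 CPM in Lin28a-induced libraries, 5.03, 4.53 and 2.64 CPM in no-Cre libraries and 6.16, 5.72 and 4.45 CPM in wild-type libraries. The Lin28a-induced libraries thus matched their label (edgeR against no-Cre, log2 fold change 7.38 ± 0.21 SE, adjusted p = 2.95e-07). No-Cre and wild-type libraries overlapped, so Lin28a does not check these 2 labels against each other (edgeR, log2 fold change -0.41 ± 0.22 SE, adjusted p = 0.161). The 70 histone genes together received between 1462 and 2467 counts per library, which sets the precision of everything that follows. For the 6 tested histone genes with a mean of over 100 counts the median SE of the log2 fold change between Lin28a-induced and no-Cre was 0.15, for the 7 with 20 to 100 counts it was 0.28, and for the 20 with fewer it was 0.44. A difference of 2-fold in a single gene of the last kind was therefore barely over 2 SE. Markers of the tail bud were present in all libraries, and their sum was 2486 to 2985 CPM in Lin28a-induced, 2577 to 2794 CPM in no-Cre and 1324 to 2339 CPM in wild-type libraries.

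Summed over all members, histone mRNA was lowest in the Lin28a-induced libraries. The 70 genes added up to 48.6, 46.2, 50.9 and 51.5 CPM there, against 64.3, 69.3 and 58.4 CPM in no-Cre libraries and 58.1, 74.6 and 75.5 CPM in wild-type libraries. All 4 Lin28a-induced libraries thus lay below all 6 others. The means were 49.3 ± 2.43 CPM (SD, n = 4) in the Lin28a-induced group, 64.0 ± 5.41 CPM (n = 3) in the no-Cre group and 69.4 ± 9.79 CPM (n = 3) in the wild-type group. In bulk tissue, fewer cells that make an mRNA and less of it per cell cannot be told apart. Without the 3 genes that passed the test below, the other 67 still summed to 39.2 to 44.8 CPM in Lin28a-induced libraries, against 45.8 to 54.95 CPM in no-Cre libraries and 48.6 to 64.2 CPM in wild-type libraries.

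The gap was widest for H2A and H2B. H2B genes summed to 14.1, 14.1, 15.1 and 14.4 CPM in Lin28a-induced libraries, against 21.5, 23.4 and 20.4 CPM in no-Cre and 23.4, 29.9 and 26.4 CPM in wild-type libraries. For H2A the sums were 9.14, 8.48, 7.87 and 8.97 CPM in Lin28a-induced, 11.8, 12.9 and 12.3 CPM in no-Cre and 10.5, 13.99 and 15.01 CPM in wild-type libraries. In both classes every Lin28a-induced library lay below every other library. H1 sums were 13.7 to 17.8 CPM in Lin28a-induced, 15 to 19.5 CPM in no-Cre and 15.9 to 24.7 CPM in wild-type libraries, and H3 sums were 2.97 to 3.56, 3.12 to 4.35 and 3.95 to 5.17 CPM in the same order of groups. H1 overlapped between Lin28a-induced and both other groups, and H3 overlapped with no-Cre but not with wild type. H4 ran otherwise, at 6.77 to 8.03 CPM in Lin28a-induced and 7.69 to 9.80 CPM in no-Cre libraries and only 3.14 to 5.46 CPM in wild-type libraries. That order came from 1 gene, Hist1h4i. The other 12 H4 genes summed to 1.91 to 2.61 CPM in Lin28a-induced, 1.89 to 3.28 CPM in no-Cre and 2.03 to 3.86 CPM in wild-type libraries.

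**Figure D2:**
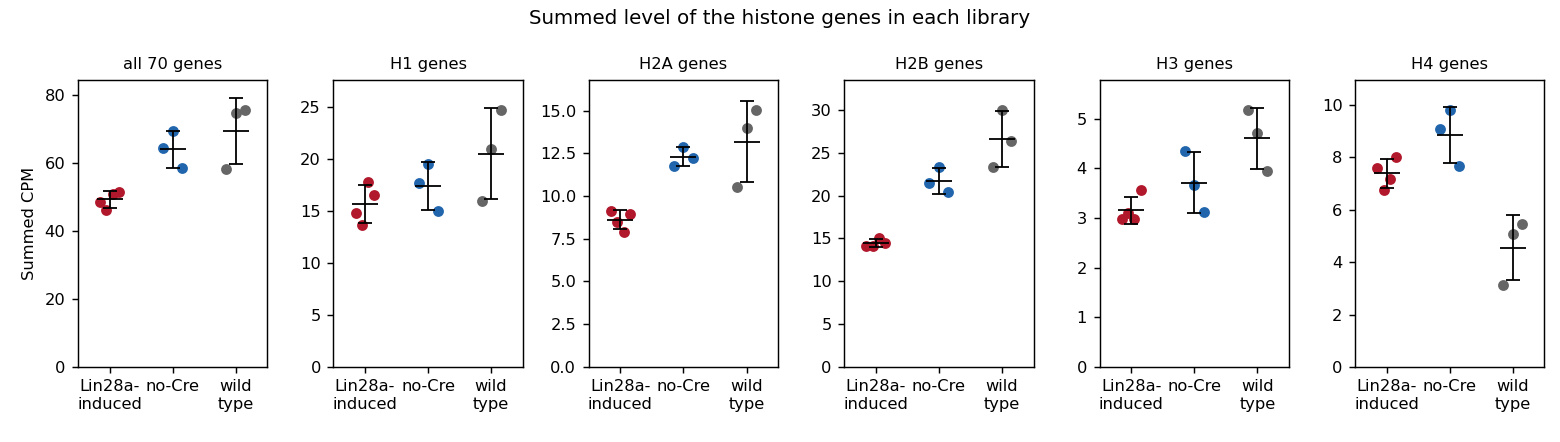
Summed CPM of all 70 histone genes and of each class in the 10 libraries (points), with the group mean and SD (black bars), for Lin28a-induced, no-Cre and wild-type tail buds. The Lin28a-induced libraries lie lowest for all genes together, for H2A and for H2B, and wild-type libraries lie lowest for H4.

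As shares of all histone counts, H2B made up 28.0% to 30.6% in Lin28a-induced, 33.4% to 34.9% in no-Cre and 34.9% to 40.2% in wild-type libraries. H1 made up 29.6% to 35% in Lin28a-induced and 25.7% to 28.2% in no-Cre libraries, with 27.4% to 32.7% in wild-type libraries. The composition of the histone pool thus differed in these 2 classes between Lin28a-induced and no-Cre libraries with no overlap. Shares of the same pool depend on each other, so a lower H2B share by itself raises the shares of other classes. The summed CPM of H1 overlapped between these groups, at 13.7 to 17.8 CPM in Lin28a-induced and 15 to 19.5 CPM in no-Cre libraries.

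Between Lin28a-induced and no-Cre, red blood cell transcripts moved in the same direction as the histone sum, with mean marker sums of 5183 and 7793 CPM. Wild type, with the highest mean histone sum, had a mean marker sum of 5670 CPM, below that of no-Cre. The 10 markers of these cells summed to 4908, 3751, 6146 and 5928 CPM in Lin28a-induced, 9562, 8161 and 5657 CPM in no-Cre and 2761, 8097 and 6151 CPM in wild-type libraries, and all 10 were detected. All 10 had negative fold changes between Lin28a-induced and no-Cre, and 0 passed the edgeR test (0 at an unadjusted p under 0.05) or DESeq2. No-Cre replicate 8, whose marker sum of 5657 CPM lay within the Lin28a-induced range, had a histone sum of 58.4 CPM, above each Lin28a-induced library. Wild-type replicate 1 had the lowest marker sum of all libraries, 2761 CPM, and a histone sum of 58.1 CPM. Within each group, the library with the lowest marker sum also had the lowest histone sum. These were Lin28a-induced replicate 3 (3751 and 46.2 CPM), no-Cre replicate 8 and wild-type replicate 1. At the upper end the sums did not match in any group. The highest marker sums were in Lin28a-induced replicate 4, no-Cre replicate 6 and wild-type replicate 2. The highest histone sums were in Lin28a-induced replicate 5, no-Cre replicate 7 and wild-type replicate 3. Single markers differed by log2 values from -3.05 to 8.41 in Lin28a-induced over wild type, so marker sums are hard to compare with wild type. The part of red blood cells in the histone sums was not tested.

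Gene by gene, 33 of the 70 members passed the filter on low counts and were tested (5 H1, 8 H2A, 11 H2B, 5 H3 and 4 H4 genes). Between Lin28a-induced and no-Cre, which differ in FoxD1-Cre and so in the induced transgene, 3 of 33 fell and 0 rose, by edgeR's quasi-likelihood test with Benjamini-Hochberg adjustment over all 16340 tested genes and a threshold of 0.05. Below, ± after a log2 fold change is its SE. Among all tested genes 1.15% were lower and 1.76% were higher by this rule. The 3 genes were Hist3h2ba, Hist1h2bc and Hist1h2ac. DESeq2, which gave an adjusted p for 11 of the 70 members, also called 3 as lower and 0 as higher. At an unadjusted p under 0.05 there were 7 of the 33 histone genes, all lower. Of all 16340 tested genes 2658 had such a p, 1364 of them higher. That share of all genes also stands beside the unadjusted counts of other lists below.

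Of the 33 tested members 29 had a negative fold change, with a median log2 value of -0.52, where 8212 of all 16340 tested genes were negative with a median of -0.001. The median of the histone genes was -0.30 without no-Cre replicate 7 (37 tested, 29 negative) and -0.34 with no filter on low counts (63 tested, 44 negative). In 7 of the 33 every Lin28a-induced library lay below every no-Cre library, and 11.4% of all tested genes did so. These 7 were Hist3h2ba, Hist1h2bc, Hist1h2ac, Hist3h2a, Hist1h2be, Hist1h3g and Hist1h4i, of which Hist1h3g passed the filter on low counts only with the help of the no-Cre libraries. Without the no-Cre libraries, 4 of the 33 would not have passed the filter (Hist1h2ah, Hist1h2bk, Hist1h3g and Hist1h2bb). Without the Lin28a-induced libraries, 1 would not have passed (Hist1h2bb). The filter therefore bears on the count of negative values and on the median. The tested genes had to pass a filter on counts, so none of these values describe the 37 others.

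The 3 calls rested on the full number of libraries. With 1 Lin28a-induced or no-Cre library left out, edgeR called 0 histone genes lower (without Lin28a-induced replicate 3, 4 or 5, or without no-Cre replicate 7 or 8) or only Hist3h2ba (without Lin28a-induced replicate 2 or no-Cre replicate 6). The estimates moved little. For Hist3h2ba the log2 fold change then lay between -1.11 and -0.92, with an adjusted p of up to 0.111, for Hist1h2ac between -1.05 and -0.80 with up to 0.191, and for Hist1h2bc between -0.79 and -0.60 with up to 0.184.

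Against wild type, many more genes of every kind differed. Lin28a-induced libraries had 11 histone genes lower and 2 higher than wild type by edgeR, of 33, where 25.0% of all tested genes were lower and 24.3% higher. Without wild-type replicate 2, 9 of 38 were lower. Of the 11 lower genes, 3 (Hist2h2bb, Hist1h2al and Hist1h1a) would not have passed the filter without the wild-type libraries, in which they were high, so the filter bears on their calls and 8 lower genes are left without them. No-Cre libraries had 5 lower and 2 higher than wild type, against 21.4% and 21.0% of all tested genes, and 3 lower genes are left without Hist2h2bb and Hist1h2al. How the shares of the histone genes differ from those of all genes was not tested. Median log2 fold changes of the 33 genes were -0.84 for Lin28a-induced over wild type and -0.33 for no-Cre over wild type, beside -0.02 and -0.02 for all genes. With a filter of at least 1 CPM in 3 libraries, which left 11 histone genes, these medians were -0.43 and -0.16. Lin28a-induced libraries enter the comparisons with no-Cre and with wild type, wild-type libraries enter both comparisons of this paragraph, and no-Cre libraries enter the comparisons with either other group, so the 3 sets of values are not independent.

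Wild-type libraries also stood apart in cell type markers. All 8 epidermis markers were called lower and all 8 endothelial markers higher by edgeR in Lin28a-induced and in no-Cre libraries against wild type. The epidermis sum was 276 to 323 CPM in Lin28a-induced, 295 to 332 CPM in no-Cre and 826 to 1034 CPM in wild-type libraries. For endothelial markers it was 283 to 392, 299 to 335 and 68.9 to 143 CPM in that order. Against wild type 5 of 14 tail bud markers were called higher in Lin28a-induced and 6 in no-Cre libraries, 7 and 4 of 10 macrophage markers were higher (and 0 and 1 lower), and of 10 red blood cell markers 4 were higher and 1 lower in either group. Of 6 tested neuron markers 1 was higher and 1 lower in either group. Of 5 tested muscle markers 1 was higher and 1 lower in Lin28a-induced libraries, and 0 higher and 1 lower in no-Cre libraries. Beside these counts, 24.3% of all tested genes were higher and 25.0% lower in Lin28a-induced, and 21.0% and 21.4% in no-Cre libraries. None of the macrophage, neuron, epidermis, endothelial, muscle or tail bud markers passed edgeR between Lin28a-induced and no-Cre (1 tail bud, 1 macrophage and 1 muscle marker had an unadjusted p under 0.05), and DESeq2 called 1 macrophage and 1 muscle marker higher. All 10 macrophage markers and all 5 tested muscle markers had positive fold changes between Lin28a-induced and no-Cre, with median log2 values of 0.27 and 0.15. The macrophage sum was 107 to 129 CPM in Lin28a-induced, 90.2 to 111 CPM in no-Cre and 39.1 to 84.3 CPM in wild-type libraries, and the muscle sum was 8.05 to 14.6, 6.49 to 8.61 and 9.14 to 10.95 CPM in that order. What part these differences have in the histone values, between Lin28a-induced and no-Cre or against wild type, was not tested.

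**Figure D3:**
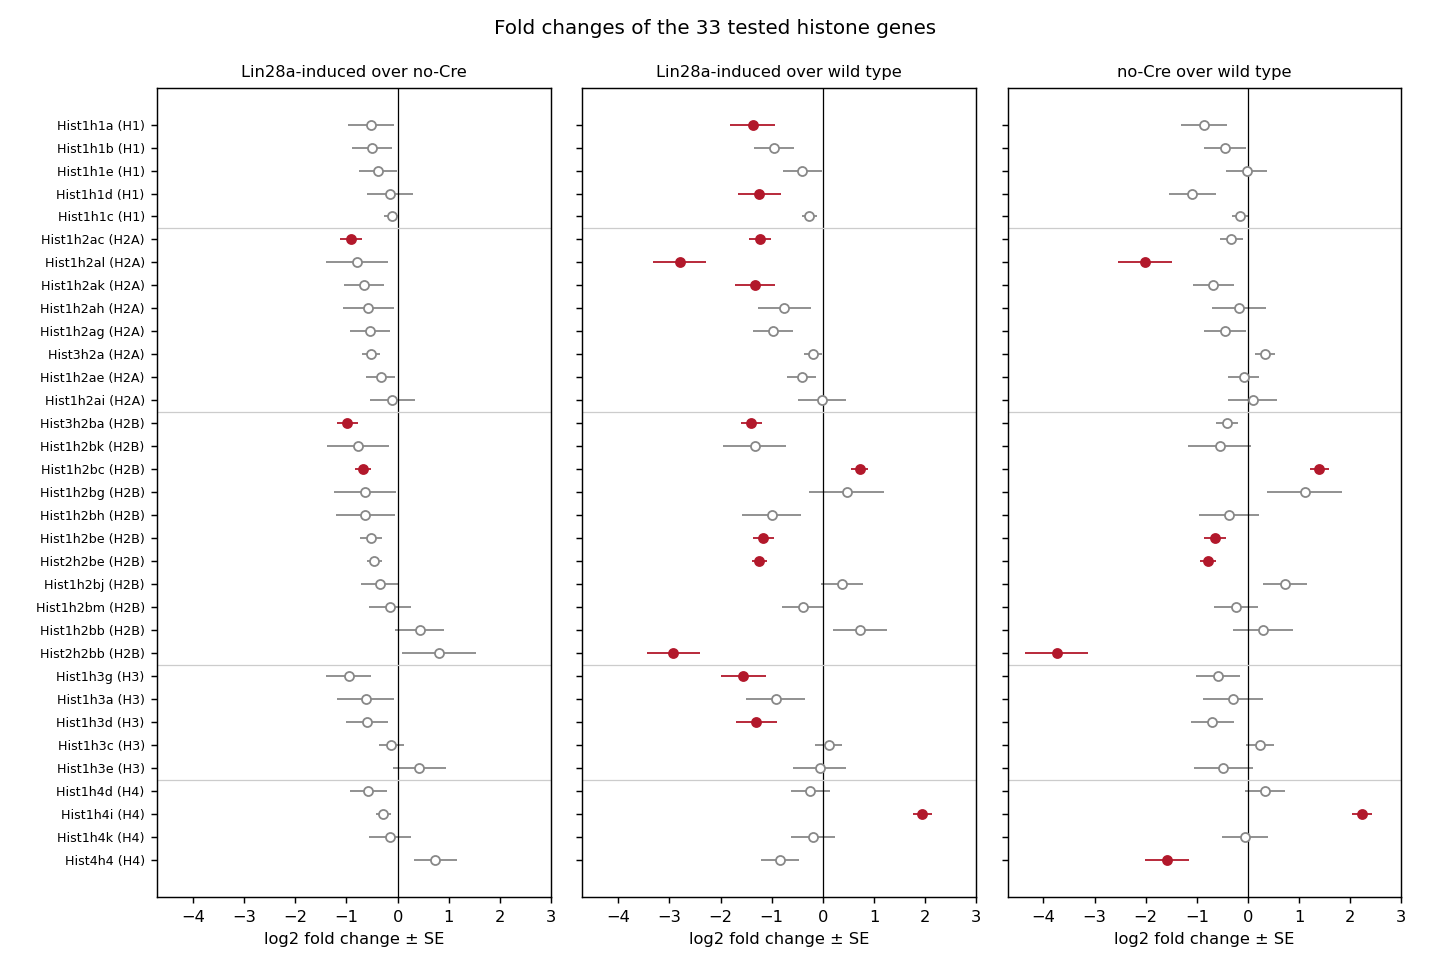
Log2 fold changes (points) with SE (bars) of the 33 tested histone genes in 3 comparisons, ordered by class. Filled red points passed an adjusted p of 0.05 in edgeR. Most points lie left of 0 for Lin28a-induced over no-Cre, and Hist1h4i and Hist1h2bc lie to the right in both comparisons with wild type.

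H2B genes held 2 of the 3 calls between Lin28a-induced and no-Cre. Hist3h2ba (chr11:58948920-58949533, plus strand) encodes an H2B, and its annotated transcript runs 169 bases past the stem-loop to a polyadenylation signal. It stood at 2.903, 2.497, 2.67 and 2.29 CPM in Lin28a-induced libraries, 4.25, 5.57 and 5.59 CPM in no-Cre libraries and 5.09, 9.41 and 5.92 CPM in wild-type libraries. Every Lin28a-induced library lay below every library of both other groups. Hist3h2ba fell against no-Cre (edgeR, log2 fold change -0.99 ± 0.21 SE, adjusted p = 0.0217) as well as against wild type (edgeR, log2 fold change -1.40 ± 0.21 SE, adjusted p = 9.49e-05), while no-Cre and wild type overlapped (edgeR, log2 fold change -0.41 ± 0.21 SE, adjusted p = 0.139). Wild-type replicate 2 was the highest library, and without wild-type replicate 1 the last difference passed at 0.0406.

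Hist1h2bc (chr13:23684199-23692908, plus strand), the H2B gene opposite Hist1h2ac, behaved differently. Its values were 3.596, 3.08, 3.95 and 3.303 CPM in Lin28a-induced libraries, 5.81, 6.195 and 4.67 CPM in no-Cre libraries and 2.23, 1.91 and 2.204 CPM in wild-type libraries. The 3 groups did not overlap, with no-Cre highest and wild type lowest. It fell against no-Cre in edgeR (log2 fold change -0.68 ± 0.15 SE, adjusted p = 0.0331) and rose against wild type (log2 fold change 0.72 ± 0.17 SE, adjusted p = 0.00352), and it was higher still in no-Cre over wild type (log2 fold change 1.40 ± 0.18 SE, adjusted p = 4.38e-05).

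Hist2h2be (chr3:96221119-96223738, plus strand), an H2B gene that shares no 75-base word with another gene, had 3.53, 4.09, 4.11 and 4.83 CPM in Lin28a-induced libraries, 5.94, 6.403 and 4.701 CPM in no-Cre libraries and 9.03, 10.5 and 9.96 CPM in wild-type libraries. Lin28a-induced and no-Cre overlapped, at an edgeR value of -0.46 ± 0.15 at an adjusted p of 0.118. Both groups lay wholly below wild type, and the gene fell in edgeR in Lin28a-induced (log2 fold change -1.24 ± 0.15 SE, adjusted p = 1.33e-05) and in no-Cre libraries (log2 fold change -0.79 ± 0.15 SE, adjusted p = 0.00121). Hist1h2be (chr13:23583670-23621124, minus strand) overlaps exons of Hist1h1e and Gm11398 on the same strand, so some of its counts may belong to them. It measured 1.32, 1.71, 2.07 and 1.47 CPM in Lin28a-induced libraries, 2.42, 2.26 and 2.37 CPM in no-Cre libraries and 4.02, 4.22 and 2.8 CPM in wild-type libraries. In this gene all 3 groups were separate. The edgeR test called it lower in Lin28a-induced over wild type (log2 fold change -1.16 ± 0.21 SE, adjusted p = 0.000429) and in no-Cre over wild type (log2 fold change -0.65 ± 0.22 SE, adjusted p = 0.0284), and not in Lin28a-induced over no-Cre (-0.52 ± 0.21 at an adjusted p of 0.231). The no-Cre call was lost without no-Cre replicate 6, 7 or 8 or wild-type replicate 1 or 2, at adjusted p of 0.0669, 0.084, 0.0712, 0.073 and 0.0823.

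Hist2h2bb (chr3:96269752-96270132, plus strand), whose sequence is wholly shared, was close to 0 outside wild type, with 0.165, 0.174, 0.188 and 0.0508 CPM in Lin28a-induced libraries, 0.1303, 0.0298 and 0.0686 CPM in no-Cre libraries and 0.716, 0.771 and 1.84 CPM in wild-type libraries. The edgeR values were -2.92 ± 0.52 at an adjusted p of 0.000401 for Lin28a-induced over wild type and -3.74 ± 0.62 at an adjusted p of 0.000352 for no-Cre over wild type. Only the wild-type libraries reached the filter's limit of 0.322 CPM, so the filter itself selected Hist2h2bb for being high in wild type. With no filter on low counts the edgeR adjusted p was 0.000122 in Lin28a-induced and 7.6e-05 in no-Cre over wild type. The no-Cre estimate moved to -4.40 without no-Cre replicate 6 and to -3.18 without wild-type replicate 3, and it passed in both fits. The 6 remaining tested H2B genes (Hist1h2bj, Hist1h2bm, Hist1h2bk, Hist1h2bh, Hist1h2bg and Hist1h2bb) averaged 0.242 to 0.534 CPM, and none passed in any comparison.

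Among the H2A genes, Hist1h2ac (chr13:23681467-23683948, minus strand) carried the call against no-Cre. Its annotated transcript runs 2010 bases past the stem-loop. It stood at 1.02, 1.37, 1.13 and 1.17 CPM in Lin28a-induced libraries, 1.77, 2.53 and 2.33 CPM in no-Cre libraries and 2.23, 2.96 and 3.12 CPM in wild-type libraries. Every Lin28a-induced library lay below every no-Cre and wild-type library. Hist1h2ac fell in edgeR against no-Cre (log2 fold change -0.91 ± 0.21 SE, adjusted p = 0.0389) and against wild type (log2 fold change -1.23 ± 0.22 SE, adjusted p = 0.000383), and no-Cre overlapped with wild type (log2 fold change -0.33 ± 0.22 SE, adjusted p = 0.259).

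Hist3h2a (chr11:58954685-58956830, plus strand) lies near Hist3h2ba and overlaps an exon of Trim17 on the same strand. Its values were 3.83, 3.86, 4.33 and 4.32 CPM in Lin28a-induced libraries, 5.53, 5.57 and 6.55 CPM in no-Cre libraries and 3.22, 5.11 and 5.69 CPM in wild-type libraries. No Lin28a-induced library reached the lowest no-Cre library, but the difference did not pass in edgeR (log2 fold change -0.52 ± 0.17 SE, adjusted p = 0.133), and wild type overlapped with both groups. The call was gained when only the Lin28a-induced and no-Cre libraries were fitted, or without wild-type replicate 1, at a log2 fold change of -0.53 in both. Hist1h2ae, at 0.957, 0.784, 0.6898 and 1.09 CPM in Lin28a-induced libraries, 1.095, 1.25 and 0.995 CPM in no-Cre libraries and 0.795, 1.38 and 1.38 CPM in wild-type libraries, overlapped in all comparisons, with edgeR values of -0.33 ± 0.28 at an adjusted p of 0.624 against no-Cre and -0.42 ± 0.29 at an adjusted p of 0.249 against wild type.

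Hist1h2ak and Hist1h2al were lower than in wild type. Hist1h2ak had 0.264, 0.319, 0.251 and 0.407 CPM in Lin28a-induced libraries, 0.7299, 0.387 and 0.343 CPM in no-Cre libraries and 0.755, 1.01 and 0.597 CPM in wild-type libraries, and it fell in edgeR in Lin28a-induced over wild type (log2 fold change -1.33 ± 0.39 SE, adjusted p = 0.0117), a call lost without wild-type replicate 2 (adjusted p = 0.0548). The pseudogene Hist1h2al had 0.132, 0.116, 0.125 and 0.127 CPM in Lin28a-induced libraries, 0.0782, 0.477 and 0.103 CPM in no-Cre libraries and 0.755, 0.974 and 0.964 CPM in wild-type libraries, with no overlap between wild type and the other 2 groups. In edgeR it was lower in Lin28a-induced (log2 fold change -2.80 ± 0.53 SE, adjusted p = 0.000636) and in no-Cre over wild type (log2 fold change -2.02 ± 0.53 SE, adjusted p = 0.00814). The no-Cre estimate rested on no-Cre replicate 7, and it was -3.26 without that library. Hist1h2al too passed the filter only with the help of the wild-type libraries, and with no filter its edgeR adjusted p was 0.00026 in Lin28a-induced and 0.00948 in no-Cre over wild type. Hist1h2ag, Hist1h2ai and Hist1h2ah, at means of 0.320 to 0.577 CPM, passed in no comparison.

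**Figure D4:**
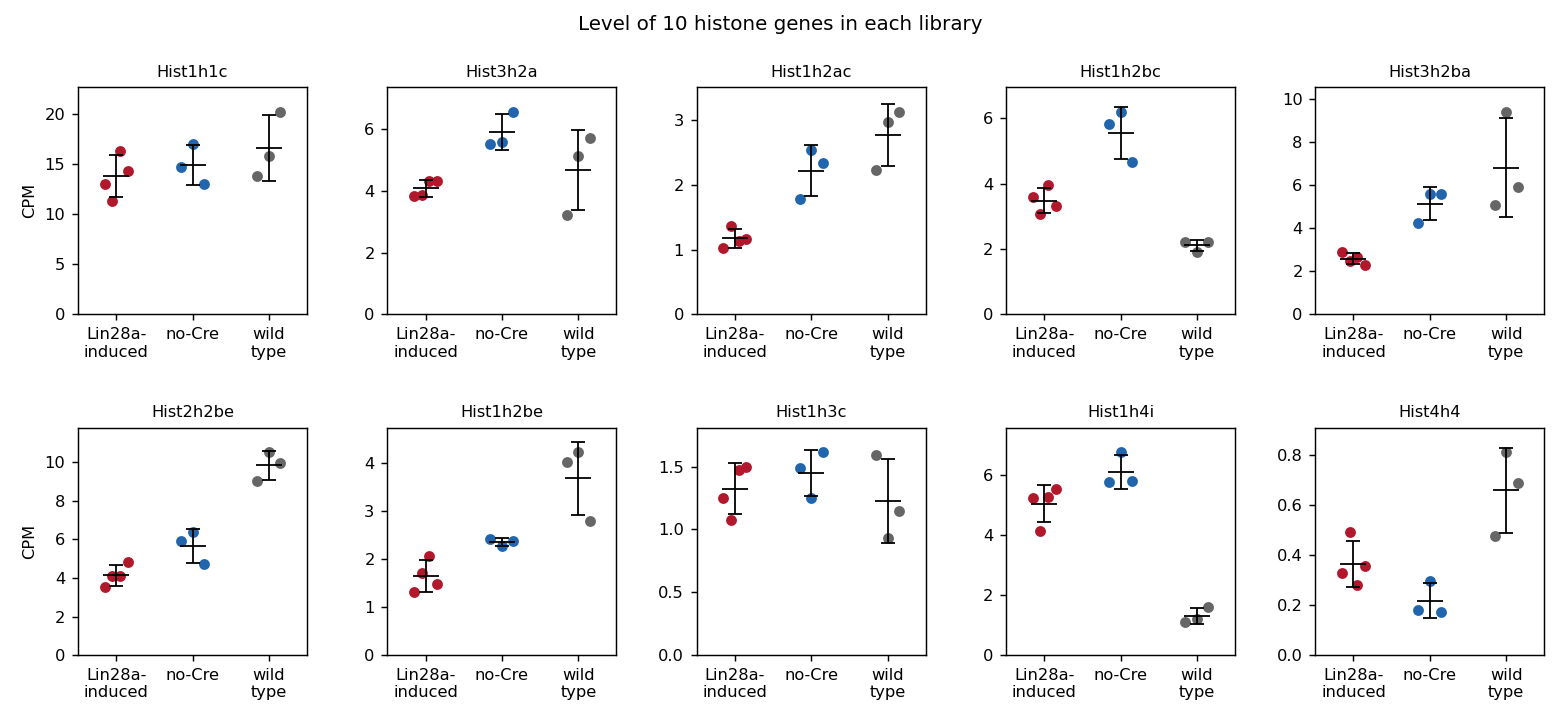
CPM of 10 histone genes in the 10 libraries (points), with the group mean and SD (black bars), each panel on its own axis from 0. In Hist1h2ac and Hist3h2ba the Lin28a-induced libraries lie lowest, in Hist1h2bc and Hist1h4i the wild-type libraries lie lowest, and in Hist1h1c and Hist1h3c the groups overlap.

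Linker histone mRNA was mostly Hist1h1c (chr13:23738808-23740367, plus strand), which held 84.9% of all H1 counts and whose transcript runs 840 bases past its stem-loop. It measured 13.03, 11.4, 16.3 and 14.3 CPM in Lin28a-induced libraries, 14.7, 16.98 and 13.01 CPM in no-Cre libraries and 13.8, 15.7 and 20.2 CPM in wild-type libraries. The groups overlapped in every comparison, at edgeR values of -0.12 ± 0.15 at an adjusted p of 0.771 for Lin28a-induced over no-Cre and -0.27 ± 0.15 at an adjusted p of 0.151 for Lin28a-induced over wild type. With its SE of 0.15 this is the most precisely measured H1 gene, and its fold change of 0.92 over no-Cre was nearer to 1 than those of the called H2A and H2B genes (0.50 to 0.63). The called genes were picked by the test itself, which selects values far from 1. Their difference from Hist1h1c was not tested.

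Hist1h1d had 0.693, 0.784, 0.345 and 1.14 CPM in Lin28a-induced libraries, 0.808, 0.953 and 0.721 CPM in no-Cre libraries and 0.676, 2.596 and 2.07 CPM in wild-type libraries. In edgeR it fell in Lin28a-induced over wild type (log2 fold change -1.24 ± 0.43 SE, adjusted p = 0.0278), although wild-type replicate 1 lay within the Lin28a-induced range. The edgeR call was lost without Lin28a-induced replicate 2 or 4 or wild-type replicate 2 or 3 (adjusted p = 0.0598, 0.0699, 0.143 and 0.0773). Hist1h1a had 0.297, 0.203, 0.251 and 0.203 CPM in Lin28a-induced libraries, 0.417, 0.417 and 0.172 CPM in no-Cre libraries and 0.358, 0.6896 and 0.826 CPM in wild-type libraries, and it also fell against wild type in edgeR (log2 fold change -1.38 ± 0.44 SE, adjusted p = 0.0182), a call lost without wild-type replicate 2 or 3 (adjusted p = 0.0511 and 0.0783). It passed the filter only with the help of the wild-type libraries, and with no filter its edgeR adjusted p was 0.0345. Hist1h1e had 0.594, 0.784, 0.533 and 0.508 CPM in Lin28a-induced libraries, 1.121, 0.536 and 0.686 CPM in no-Cre libraries and 0.437, 1.06 and 0.918 CPM in wild-type libraries and passed in no comparison. None of the 5 tested H1 genes passed between Lin28a-induced and no-Cre (edgeR, 0 at an unadjusted p under 0.05) or by DESeq2, and all 5 values were negative. Hist1h1t, the H1 gene of the testis, had 18 counts in the 10 libraries and was not tested.

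H3 genes held the fewest counts of the 5 classes, 6.31% of all histone counts. Hist1h3c (chr13:23744973-23745602, minus strand), which ends 74 bases after its stem-loop and holds 36.2% of H3 counts, had 1.25, 1.07, 1.47 and 1.499 CPM in Lin28a-induced libraries, 1.49, 1.25 and 1.61 CPM in no-Cre libraries and 1.59, 0.933 and 1.15 CPM in wild-type libraries. The groups overlapped, with edgeR values of -0.13 ± 0.25 at an adjusted p of 0.869 against no-Cre and 0.11 ± 0.26 at an adjusted p of 0.738 against wild type. Hist1h3g had 0.231, 0.232, 0.0941 and 0.153 CPM in Lin28a-induced libraries, 0.339, 0.328 and 0.378 CPM in no-Cre libraries and 0.596, 0.649 and 0.321 CPM in wild-type libraries. All 4 Lin28a-induced libraries lay below the no-Cre libraries and below the wild-type libraries. It fell against wild type in edgeR (log2 fold change -1.55 ± 0.43 SE, adjusted p = 0.00907) and its value against no-Cre was -0.96 ± 0.44 at an adjusted p of 0.297. Hist1h3d had 0.198, 0.2903, 0.345 and 0.356 CPM in Lin28a-induced libraries, 0.313, 0.715 and 0.343 CPM in no-Cre libraries and 0.557, 0.852 and 0.826 CPM in wild-type libraries, and was lower in Lin28a-induced over wild type in edgeR (log2 fold change -1.30 ± 0.40 SE, adjusted p = 0.016), a call lost without wild-type replicate 2 (adjusted p = 0.0503). Hist1h3e, at 0.462, 0.639, 0.4703 and 0.381 CPM in Lin28a-induced libraries, 0.417, 0.417 and 0.2402 CPM in no-Cre libraries and 0.954, 0.446 and 0.0918 CPM in wild-type libraries, varied most among wild-type libraries and passed in no comparison.

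Among H4 genes, Hist1h4i (chr13:22040636-22041362, minus strand) held 62.7% of the counts of its class and had the smallest p of the 33 tested histone genes in both comparisons with wild type. It stood at 5.25, 4.15, 5.27 and 5.54 CPM in Lin28a-induced libraries, 5.79, 6.76 and 5.799 CPM in no-Cre libraries and 1.11, 1.22 and 1.61 CPM in wild-type libraries. Every library of both transgenic groups lay above every wild-type library, and all Lin28a-induced libraries lay below all no-Cre libraries. By edgeR, Hist1h4i was 3.86-fold higher in Lin28a-induced than in wild type (log2 fold change 1.95 ± 0.19 SE, adjusted p = 2.28e-06). In no-Cre libraries it was 4.67-fold higher than in wild type (edgeR, log2 fold change 2.23 ± 0.19 SE, adjusted p = 1.49e-06). Between Lin28a-induced and no-Cre it did not pass in edgeR (log2 fold change -0.28 ± 0.15 SE, adjusted p = 0.412). Both calls against wild type held in all 10 fits that left out 1 library.

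Hist4h4 (chr6:136801553-136804415, minus strand), the member on chromosome 6, had 0.3299, 0.494, 0.282 and 0.356 CPM in Lin28a-induced libraries, 0.183, 0.298 and 0.172 CPM in no-Cre libraries and 0.477, 0.811 and 0.689 CPM in wild-type libraries. In edgeR it was lower in no-Cre than in wild type (log2 fold change -1.58 ± 0.43 SE, adjusted p = 0.00934), and its other values were 0.74 ± 0.41 at an adjusted p of 0.413 for Lin28a-induced over no-Cre and -0.84 ± 0.37 at an adjusted p of 0.0773 over wild type. Hist1h4d had 0.528, 0.552, 0.376 and 0.686 CPM in Lin28a-induced libraries, 0.8602, 0.953 and 0.583 CPM in no-Cre libraries and 0.477, 0.974 and 0.459 CPM in wild-type libraries, with overlap in all comparisons. It passed in no comparison, and neither did Hist1h4k, at a mean of 0.373 CPM.

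Many H2A and H2B genes form pairs that are transcribed away from each other from a shared promoter region. There were 14 such pairs with annotated starts within 500 bases, and both genes were tested in 4 of them. The pair of Hist1h2ac and Hist1h2bc, whose starts lie 251 bases apart in the window shown above, was the only one with calls between Lin28a-induced and no-Cre. Both of its genes fell there, with log2 fold changes of -0.91 ± 0.21 and -0.68 ± 0.15. Against wild type the same pair went opposite ways in Lin28a-induced libraries, at -1.23 ± 0.22 for Hist1h2ac and 0.72 ± 0.17 for Hist1h2bc. In the other 3 pairs (Hist1h2ah with Hist1h2bk, Hist1h2ag with Hist1h2bj, and Hist1h2ae with Hist1h2bg) all 6 values over no-Cre were negative, between -0.78 and -0.33, and none passed. Hist1h2ah and Hist1h2bk passed the filter on low counts only with the help of the no-Cre libraries, and Hist1h2bk also needed the wild-type libraries. The filter thus bears on the negative values of that pair. Whether the paired genes share transcripts or reads was not tested.

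The 37 members that were not tested had at most 17 counts in any library, and 30 of them had at least 1 count. Together they summed to 2.67 to 3.80 CPM in Lin28a-induced, 2.40 to 5.01 CPM in no-Cre and 3.46 to 5.83 CPM in wild-type libraries. The groups overlapped. The highest of them was Hist1h4j with 85 counts over the 10 libraries. The testis-type genes Hist1h2aa and Hist1h2ba had 2 and 1.

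Histones listed here as replication-independent took up far more of the counts in these libraries. Most, but not all, of them are made throughout the cell cycle from polyadenylated mRNAs. The 11 genes of that list summed to 3135 to 3314 CPM in Lin28a-induced, 3350 to 3452 CPM in no-Cre and 3109 to 3334 CPM in wild-type libraries. All 70 replication-dependent genes came to 1.46% to 1.64% of that sum in Lin28a-induced, 1.74% to 2.03% in no-Cre and 1.74% to 2.40% in wild-type libraries. Against no-Cre 1 of the 11 fell and 0 rose in edgeR. It was H1f0, a linker histone known to accumulate in differentiated cells, at 489.8 to 521 CPM in Lin28a-induced, 581 to 596 in no-Cre and 500.4 to 557 in wild-type libraries (edgeR, log2 fold change -0.21 ± 0.05 SE, adjusted p = 0.0361). That call was lost without any 1 of the Lin28a-induced libraries (adjusted p of 0.0521, 0.0792, 0.108 and 0.116) or of the no-Cre libraries (0.132, 0.191 and 0.144). DESeq2 called the same gene.

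Against wild type 4 of these 11 rose and 4 fell in Lin28a-induced libraries, and 5 rose and 3 fell in no-Cre libraries. Of all tested genes 24.3% rose and 25.0% fell in Lin28a-induced libraries, and 21.0% rose and 21.4% fell in no-Cre libraries. Whether this list or those below differ from these shares was not tested. H2afx, whose protein marks DNA breaks when phosphorylated, was highest in Lin28a-induced libraries, with 311 to 333 CPM in Lin28a-induced, 284 to 291 in no-Cre and 185 to 228 in wild-type libraries (edgeR over wild type, log2 fold change 0.63 ± 0.06 SE, adjusted p = 4.08e-06 for Lin28a-induced and log2 fold change 0.46 ± 0.07 SE, adjusted p = 0.000152 for no-Cre). H2afy, a macroH2A gene, had 405 to 431 CPM in Lin28a-induced, 426 to 436 in no-Cre and 301 to 354 in wild-type libraries, and H2afy2, the other one, 212 to 232 CPM in Lin28a-induced, 219 to 242 in no-Cre and 184 to 193 in wild-type libraries. In edgeR H2afy rose by 0.32 ± 0.06 in Lin28a-induced and 0.37 ± 0.06 in no-Cre over wild type, and H2afy2 by 0.20 ± 0.05 and 0.28 ± 0.06 in that order. Cenpa, the centromeric H3, had 159 to 181 CPM in Lin28a-induced, 174 to 177 in no-Cre and 141 to 159.7 in wild-type libraries, and rose by 0.18 ± 0.06 in Lin28a-induced and 0.22 ± 0.06 in no-Cre over wild type. H1fx had 73.2 to 80.2 CPM in Lin28a-induced, 83.7 to 87.5 in no-Cre and 52.04 to 77.1 in wild-type libraries and was called higher in no-Cre over wild type only (0.36 ± 0.11).

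Lower than wild type were H2afj, with 25.8 to 30.3 CPM in Lin28a-induced, 26.4 to 27.8 in no-Cre and 40.4 to 41.5 in wild-type libraries (edgeR, -0.58 ± 0.07 for Lin28a-induced and -0.59 ± 0.07 for no-Cre), and H2afz, which encodes H2A.Z, with 454 to 535 CPM in Lin28a-induced, 501 to 563 in no-Cre and 616 to 675 in wild-type libraries (-0.38 ± 0.06 and -0.26 ± 0.07). H3f3a and H3f3b both encode the H3 that is deposited outside replication. H3f3a had 101 to 112 CPM in Lin28a-induced, 112 to 122 in no-Cre and 135 to 139 in wild-type libraries and fell in both groups (-0.38 ± 0.05 and -0.23 ± 0.06). H3f3b had 681 to 725 CPM in Lin28a-induced, 747 to 762 in no-Cre and 737 to 818 in wild-type libraries and fell in Lin28a-induced over wild type (-0.15 ± 0.05). The edgeR call of H3f3b was lost without Lin28a-induced replicate 5 or wild-type replicate 1 (adjusted p = 0.0527 and 0.0817). Cenpa was lost in Lin28a-induced over wild type without Lin28a-induced replicate 2 or 3 or wild-type replicate 1 or 2 (0.0698, 0.0689, 0.0619 and 0.0669), and H1fx without no-Cre replicate 8 (0.0565).

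Genes that make the histone mRNA 3′ end did not pass between Lin28a-induced and no-Cre. Of 18 genes 0 rose and 0 fell in edgeR (3 at an unadjusted p under 0.05) and in DESeq2. Slbp, the stem-loop binding protein, had 125 to 135 CPM in Lin28a-induced, 120.2 to 122 in no-Cre and 120.2 to 131 in wild-type libraries, with edgeR values of 0.11 ± 0.05 at an adjusted p of 0.279 over no-Cre and 0.07 ± 0.05 at an adjusted p of 0.257 over wild type for Lin28a-induced. Npat, the coactivator of histone genes at the histone locus body, had 66.1 to 74.4 CPM in Lin28a-induced, 74.6 to 83.1 in no-Cre and 75.01 to 90.1 in wild-type libraries (-0.16 ± 0.07 at an adjusted p of 0.268 over no-Cre in edgeR). Casp8ap2, another protein of that body, had 131 to 158 CPM in Lin28a-induced, 156 to 162 in no-Cre and 146 to 169.9 in wild-type libraries (-0.10 ± 0.07 at an adjusted p of 0.549 over no-Cre in edgeR).

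Against wild type 7 of the 18 rose and 4 fell in Lin28a-induced libraries, and 3 rose and 3 fell in no-Cre libraries. These counts stand beside shares of 24.3% higher and 25.0% lower for Lin28a-induced and 21.0% and 21.4% for no-Cre over all tested genes. The cleavage scaffold Sympk rose, at 286 to 317 CPM in Lin28a-induced, 281 to 286 in no-Cre and 185 to 225 in wild-type libraries (edgeR, 0.53 ± 0.07 for Lin28a-induced and 0.45 ± 0.07 for no-Cre over wild type). So did Cstf2, at 139 to 145 CPM in Lin28a-induced, 136 to 137 in no-Cre and 117 to 123 in wild-type libraries (0.23 ± 0.05 and 0.18 ± 0.05), and Srrt, at 271 to 283 CPM in Lin28a-induced, 271 to 279.9 in no-Cre and 194 to 248 in wild-type libraries (0.29 ± 0.07 and 0.29 ± 0.07). In Lin28a-induced libraries only, the test also passed for Snrpb at 305 to 330.3 CPM in Lin28a-induced, 284 to 308 in no-Cre and 257 to 279 in wild-type libraries (0.25 ± 0.05), Cpsf2 at 188 to 216 CPM in Lin28a-induced, 153 to 181 in no-Cre and 151 to 186 in wild-type libraries (0.24 ± 0.08), Cpsf3, the cutting enzyme, at 112 to 118 CPM in Lin28a-induced, 111 to 113 in no-Cre and 104 to 110.3 in wild-type libraries (0.12 ± 0.05), and Snrpd3 at 193 to 202 CPM in Lin28a-induced, 188 to 206 in no-Cre and 176 to 189.9 in wild-type libraries (0.14 ± 0.05). Whether their change differs between Lin28a-induced and no-Cre is the first comparison, where none passed.

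The Sm protein genes Snrpe and Snrpg fell, with 105 to 120.3 CPM in Lin28a-induced, 112 to 120.4 in no-Cre and 145 to 168 in wild-type libraries for Snrpe (edgeR, -0.46 ± 0.06 and -0.42 ± 0.07 over wild type) and 45.4 to 48.3 CPM in Lin28a-induced, 47.2 to 51.3 in no-Cre and 58.7 to 70.9 in wild-type libraries for Snrpg (-0.48 ± 0.07 and -0.43 ± 0.07). Zfp473, a zinc finger protein of the U7 snRNP, had 5.87 to 6.91 CPM in Lin28a-induced, 5.09 to 7.14 in no-Cre and 7.62 to 15.4 in wild-type libraries (-0.69 ± 0.21 and -0.75 ± 0.23). Npat fell in Lin28a-induced over wild type (-0.18 ± 0.07). Several of these calls depended on 1 library. In Lin28a-induced over wild type, the highest adjusted p with 1 library left out was 0.166 for Npat and 0.115 for Zfp473 (both without wild-type replicate 2), 0.105 for Cpsf2 (without wild-type replicate 2), 0.108 for Snrpd3 and 0.0972 for Cpsf3 (both without wild-type replicate 3). In no-Cre over wild type it was 0.0814 for Zfp473 (without wild-type replicate 2). Sympk, Snrpe, Snrpg, Cstf2, Snrpb and Srrt were called in all 10 such fits.

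Of 8 genes of histone mRNA decay, 0 passed between Lin28a-induced and no-Cre in edgeR (2 at an unadjusted p under 0.05), and DESeq2 called 1 lower. Against wild type 2 rose and 3 fell in Lin28a-induced libraries, and 2 rose and 1 fell in no-Cre libraries. The shares of all tested genes were 24.3% and 25.0% in Lin28a-induced and 21.0% and 21.4% in no-Cre libraries. Eri1, an exonuclease that trims histone mRNA ends, fell, with 74.9 to 84.6 CPM in Lin28a-induced, 78.2 to 83.8 in no-Cre and 93.4 to 107 in wild-type libraries (edgeR, -0.32 ± 0.06 for Lin28a-induced and -0.31 ± 0.06 for no-Cre). Upf1, the helicase of histone mRNA decay, rose, with 180.3 to 189 CPM in Lin28a-induced, 185 to 192 in no-Cre and 129 to 161 in wild-type libraries (0.32 ± 0.07 and 0.35 ± 0.07). Dis3l2, an exonuclease that degrades uridylated RNA such as let-7 precursors, had 24.97 to 29.1 CPM in Lin28a-induced, 30.3 to 33.97 in no-Cre and 33.8 to 35.1 in wild-type libraries and fell in Lin28a-induced over wild type (-0.34 ± 0.07), with -0.24 ± 0.07 at an adjusted p of 0.0887 over no-Cre in edgeR. Zcchc11, a uridyl transferase that acts with Lin28a on let-7 precursors, had 226 to 252 CPM in Lin28a-induced, 238 to 264 in no-Cre and 218 to 224 in wild-type libraries and rose in no-Cre over wild type (0.20 ± 0.06). Xrn1 had 47.6 to 59.5 CPM in Lin28a-induced, 55.1 to 65.2 in no-Cre and 57.5 to 64.2 in wild-type libraries and Exosc10 116 to 121 CPM in Lin28a-induced, 110.4 to 116 in no-Cre and 101 to 110.4 in wild-type libraries, both called in Lin28a-induced over wild type (-0.22 ± 0.08 and 0.15 ± 0.05). With 1 library left out the adjusted p reached 0.156 for Xrn1 and 0.0777 for Exosc10 (both without wild-type replicate 3) and 0.0634 for Zcchc11 (without no-Cre replicate 8).

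Histone chaperones, which carry histones to DNA, included 1 gene of 21 that rose against no-Cre and 0 that fell. It was Tonsl, which binds newly made histones behind the replication fork, at 39.3 to 41.8 CPM in Lin28a-induced, 31.6 to 35.7 in no-Cre and 33.3 to 36.2 in wild-type libraries (edgeR, log2 fold change 0.25 ± 0.06 SE, adjusted p = 0.0488). The call was lost without any 1 of the Lin28a-induced or no-Cre libraries (adjusted p between 0.0871 and 0.239) or without wild-type replicate 1 (0.0518). Against wild type 7 rose and 3 fell in Lin28a-induced and 8 rose and 3 fell in no-Cre libraries. Among all tested genes the shares were 24.3% and 25.0% in Lin28a-induced and 21.0% and 21.4% in no-Cre libraries. Hjurp, the chaperone of Cenpa, was the clearest, at 404 to 469 CPM in Lin28a-induced, 378 to 412 in no-Cre and 271 to 290.3 in wild-type libraries (edgeR, log2 fold change 0.66 ± 0.06 SE, adjusted p = 1.4e-06 for Lin28a-induced over wild type).

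Among genes of S phase there was no call between Lin28a-induced and no-Cre. Of 24 genes, which include Pcna, the Mcm helicase subunits and the enzymes of nucleotide supply, 0 rose and 0 fell in edgeR (1 at an unadjusted p under 0.05) and in DESeq2, with a median log2 fold change of -0.001. Their sum was 4293 to 4633 CPM in Lin28a-induced, 4417 to 4578 CPM in no-Cre and 3956 to 4413 CPM in wild-type libraries. Per 1000 CPM of these genes, the 70 histone genes came to 10.8 to 11.1 CPM in Lin28a-induced, 13.2 to 15.1 CPM in no-Cre and 13.2 to 18.9 CPM in wild-type libraries, again with no overlap between Lin28a-induced and the others. Of 12 mitosis genes 0 passed against no-Cre in edgeR (2 at an unadjusted p under 0.05), and DESeq2 called 1 lower. Against wild type 7 S phase genes rose and 5 fell in Lin28a-induced libraries, and 5 rose and 3 fell in no-Cre libraries. Over all tested genes 24.3% rose and 25.0% fell in Lin28a-induced, and 21.0% rose and 21.4% fell in no-Cre libraries. Rrm2, a subunit of ribonucleotide reductase, rose most, at 449.8 to 506 CPM in Lin28a-induced, 439 to 497 in no-Cre and 230.4 to 322 in wild-type libraries (edgeR, 0.81 ± 0.10 for Lin28a-induced and 0.76 ± 0.10 for no-Cre over wild type). Of the mitosis genes 3 rose and 3 fell in Lin28a-induced, and 3 rose and 2 fell in no-Cre libraries, beside the same shares of all tested genes.

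**Figure D5:**
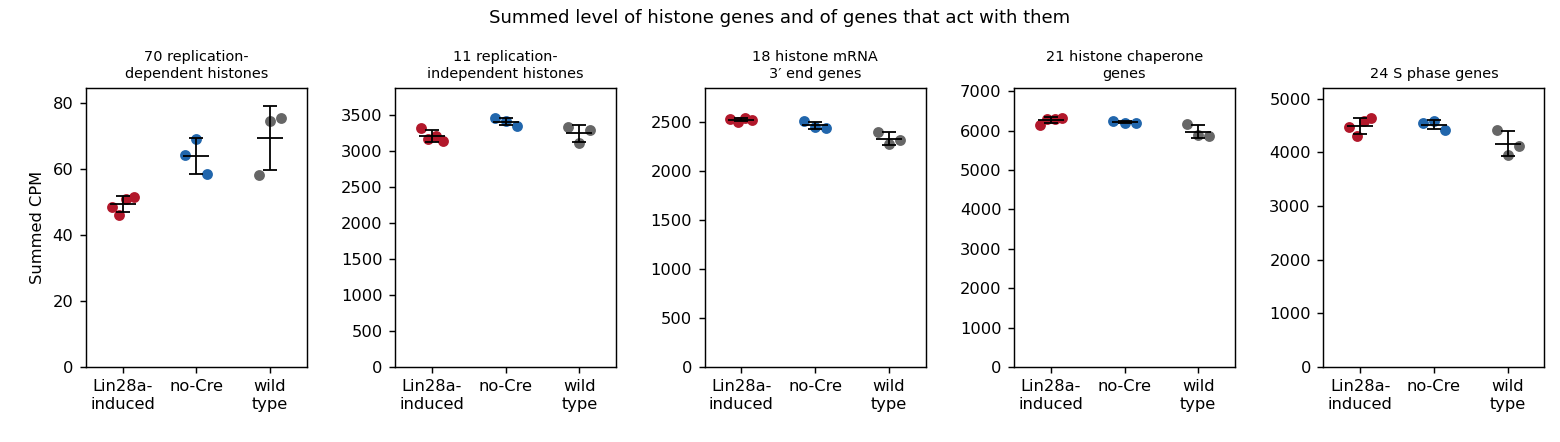
Summed CPM of the 70 replication-dependent histone genes and of 4 lists of genes that act with them, in the 10 libraries (points), with the group mean and SD (black bars), each panel on its own axis from 0. The Lin28a-induced libraries lie lowest for the replication-dependent genes, and for S phase genes they overlap with the no-Cre libraries.

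RNAs known to lack a poly(A) tail were scarce. Of 16 such genes looked for, 13 were in the table and summed to 5.80 to 13.1 CPM in Lin28a-induced, 5.22 to 8.73 CPM in no-Cre and 8.35 to 17.5 CPM in wild-type libraries. Of the 6 that were tested 0 passed between Lin28a-induced and no-Cre (edgeR, 0 at an unadjusted p under 0.05), and 0 by DESeq2. Rmrp and Rpph1, the RNAs of the RNase MRP and RNase P enzymes, fell in edgeR over wild type in Lin28a-induced libraries (-2.45 ± 0.38 and -0.74 ± 0.29) and in no-Cre libraries (-2.57 ± 0.42 and -0.98 ± 0.32). Scarna10 rose in no-Cre over wild type (2.22 ± 0.63). The histone genes without a polyadenylation signal summed to 14.6 to 16.7 CPM in Lin28a-induced, 18.5 to 23.1 CPM in no-Cre and 20.04 to 25.3 CPM in wild-type libraries. Those with such a signal summed to 29.6 to 36.3 CPM in Lin28a-induced, 39.9 to 46.2 CPM in no-Cre and 38.1 to 50.2 CPM in wild-type libraries. In both sets every Lin28a-induced library lay below all others. What part the recovery of RNA without a tail has in any of these values was not tested.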

How the data were processed

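The deposited table holds raw read counts per gene symbol made by the authors, with 1 column for each of 10 libraries of single 75-base reads. Per the submitters' processing notes, STAR 2.3.1z4, featureCounts and DESeq2 were used with mm10. No source used here gives the annotation release, the strand setting, the treatment of reads with several alignments or the RNA selection.

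From the counts, edgeR 4.0.16 (R 4.3.3) fitted all 10 libraries with 1 coefficient per group, after its filter on low counts, with TMM factors and the robust quasi-likelihood test, and p-values were adjusted over 16340 genes at a threshold of 0.05. SE is the log2 fold change divided by the root of F. The step was tested on simulated data. CPM used TMM-scaled library sizes. Gene coordinates, transcripts and shared 75-base words came from GENCODE M21 (GRCm38, the same assembly as mm10) and promoters from RefSeq (GRCm38.p6). The precision of a fold change was set by counts per gene, 1462 to 2467 per library over all 70 genes.

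Values in every library are given for the 3 tested members of each class with the highest mean CPM, and for up to 3 called members per class, comparison and direction. Called histone variants and processing and decay genes, and chosen genes of the other lists, are given as group ranges. Tests of classes are not made, and sums are descriptions. The members and lists were chosen with earlier results of these data known. Alternatives were DESeq2 1.42.0, its size factors, no TMM factors, 2 other filters, only the groups compared, no robust spread, a log2 change of at least 0.5, a replicate block and leaving out each library.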

Additional observations from a re-analysis of the deposited data

Results flagged for a closer look

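Of 56 sets of 4 Lin28a-induced values looked at, 3 held a library far from the other 3, and chance flags about 1 in 20 such groups. All 3 concern Lin28a-induced replicate 5. Hist2h2bb, whose sequence is wholly shared with other annotated genes, stood at 0.05082 CPM there, against 0.1649 to 0.1881 CPM in the other libraries of the group. H2afy2, a macroH2A gene, stood at 231.8 CPM, against 211.9 to 214.6 CPM. Snrpd3, an Sm protein gene, stood at 192.8 CPM, against 201.3 to 202.4 CPM.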

How the results depend on the processing

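With 1 library left out, edgeR called 0 to 4 histone genes lower between Lin28a-induced and no-Cre, against 3 with all libraries. The cause was not tested. Each other alternative gave 3 or 4. With a filter of at least 1 CPM in 3 libraries, which leaves 11 histone genes to test, 5 were lower in Lin28a-induced and 2 in no-Cre libraries than in wild type. With only replicates 2 and 3 and the replicate number as a replicate block, 1 was higher in Lin28a-induced libraries than in wild type, a fit with fewer libraries. Same-numbered libraries did not deviate together (correlations of -0.03 and -0.08), so the numbers were not taken as pairs. Without members that mostly share their words, which sums fewer genes, the summed CPM was 6.806 in Lin28a-induced, 10.13 in no-Cre and 10.57 in wild-type libraries for H2A, and 2.155, 2.695 and 3.054 in the same groups for H3. In Lin28a-induced libraries it was 13.13 for H2B and 6.795 for H4. Some values that were not called changed sign, and the cause was not tested. Under the block Hist1h3e was 1.11 in Lin28a-induced over wild type. In no-Cre over wild type, Casp8ap2 was 0.001 with DESeq2 and 0.008 with no filter, and Hist1h1e was 0.002 with no filter. With 1 library left out, the log2 fold change in Lin28a-induced over no-Cre lay between -0.443 and 0.086 for Hist1h1d and between -1.22 and 0.466 for Hist1h2al. Over wild type it lay between -0.055 and 0.354 for Hist1h3c, -0.522 and 0.813 for Hist1h3e, and -0.422 and 0.199 for Hist1h4d in Lin28a-induced libraries. In no-Cre over wild type the ranges were -0.264 to 0.02 for Hist1h1c, -0.389 to 0.237 for Hist1h1e, -0.301 to 0.051 for Hist1h2ae, -0.943 to 0.391 for Hist1h3e, -0.073 to 0.059 for Npat and -0.074 to 0.028 for Casp8ap2. Tonsl also failed to pass with DESeq2 size factors, with no filter and without the robust spread, and H1f0 with no filter. Low counts limit most of the family, with 20 of 33 tested genes under 20 counts on average.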
